A study of Homo sapiens with 6 samples.

Results

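The vitamin D genes described here are 6 transcripts, CYP24A1, CYP27B1, CYP27A1, VDR, RXRA and RXRB, taken by symbol from a table of 33392 genes. All 6 had a row, and all 6 passed the filter on low values. The set was chosen by the FPKM of CYP24A1, which were higher after silencing of DYRK2, so CYP24A1 is described without a test. The other 5 genes were added as its pathway partners.

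RNA sequencing was performed on HK-2 cells, an immortalised line of human renal proximal tubule epithelium. Both groups had received TGF-β1, a cytokine that drives matrix production, and all libraries carry a 48 h time point. One group of 3 libraries had a scramble siRNA and the other group of 3 an siRNA against DYRK2, a dual-specificity protein kinase, called siDYRK2 below. All libraries come from 1 cell line, and the labels do not say that replicates were separate cultures, so every p-value refers to spread among these samples that could be technical. No library lacking TGF-β1 was part of the analysis, and the labels describe neither the medium nor any vitamin D compound in it.

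Vitamin D becomes a hormone by hydroxylation in successive steps. A microsomal enzyme, CYP2R1, or the mitochondrial enzyme CYP27A1 makes the circulating form, and CYP27B1, classically in the proximal tubule, makes the active hormone calcitriol. CYP24A1 hydroxylates the side chain of calcitriol and of its precursor and so inactivates them. Calcitriol binds the nuclear receptor VDR, which pairs with an RXR receptor on DNA, and CYP24A1 is the classic gene switched on by this pair.

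Expression is given as FPKM, fragments scaled to transcript length and to the mapped fragments of the library, which can be set side by side between genes. The FPKM of a library summed to between 252318 and 255378, and the number of sequenced fragments is unknown. DYRK2, the siRNA target, stood at 5.84, 6.06 and 5.96 FPKM in the scramble libraries and at 1.45, 1.54 and 1.49 FPKM in the siDYRK2 libraries, which is 25.1% of the scramble mean. The log2 difference was −1.69 (SE 0.0513, limma adjusted p = 2e-06). By exact permutation of the library labels (two-sided) p was 0.1, which is the minimum for 3 against 3. Each difference below is on the scale of log2(FPKM + 0.5), is positive when siDYRK2 was higher, and understates changes of low genes. A call means an adjusted p under 0.05 over all genes averaging 0.5 FPKM or more.

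The proximal tubule label was checked against 17 markers, of which 14 had a value. Of these, 12 had a mean below 0.5 FPKM, with the phosphate transporter SLC34A1 and the factor HNF4A peaking at 0.02 FPKM across the libraries and PAX8 at 0.19. The summed level of the list was 7.34 to 7.91 FPKM with scramble and 5.78 to 6.21 with siDYRK2. Of 7 lung and thyroid markers 5 had a value, with a sum of 28.9 to 32.1 FPKM with scramble and 26.9 to 28.1 with siDYRK2. Nearly all of that sum came from the transcription factor NKX2-1, at 23.07 to 27.3 FPKM, and the surfactant protein gene SFTPB, at 3.1 to 4.93. The other 3 were low, with FOXA2 at most 0.27, thyroglobulin (TG) at most 0.07 and SFTPC at most 0.06 FPKM, and SFTPA1 and SCGB1A1 were not analysed here. Of the 5 general epithelial markers all were measured, with a sum of 333 to 351 FPKM with scramble and 238 to 250 with siDYRK2, and KRT18, KRT19 and CDH1 fell. Among markers of fibroblasts 6 of 7 had a value and summed to 0.37 to 0.42 FPKM with scramble and 0.64 to 0.81 with siDYRK2. Among those of endothelial and immune cells 5 of 7 had a value, all at no more than 0.04 FPKM apart from CD68, a lysosomal protein also made outside the immune system, at 11.07 to 17.49. Of 7 markers of other nephron segments 5 had a value, and SCNN1A, a sodium channel subunit, was the one above 0.5 FPKM, at 10.73 to 11.5 with scramble and 24.18 to 28.07 with siDYRK2. The part of cell identity in the results below was not tested, and in bulk RNA fewer cells of a type and less RNA per cell cannot be told apart.

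CYP24A1 (ENSG00000019186; GRCh38 chromosome 20, 54153449 to 54173973, minus strand), the enzyme that inactivates calcitriol, had the widest gap between the groups among the 6 genes. It stood at 5.16, 5.2 and 6.63 FPKM in the scramble libraries and at 17.24, 15.5 and 16.98 FPKM in the siDYRK2 libraries. The lowest siDYRK2 library was thus far above the highest scramble library, and scramble replicate 3 lay above the other 2 of its group. The means were 5.66 ± 0.837 and 16.6 ± 0.939 FPKM (SD, n = 3), a ratio of 2.93 and a log2 difference of 1.48. Of 15121 tested genes, 18 had a larger log2 difference. Without scramble replicate 3 the log2 difference was 1.59, and over the other single libraries left out it was 1.42 to 1.52.

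CYP27B1 (ENSG00000111012; chromosome 12, 57762334 to 57768986, minus strand), the enzyme that makes calcitriol, was also higher, by a much smaller amount. Its level was 3.64, 4.08 and 4.06 FPKM with scramble and 4.77, 5.05 and 4.64 FPKM with siDYRK2, and the groups did not overlap. The ratio of means was 1.23, with a log2 difference of 0.27 (SE 0.0604, limma adjusted p = 0.012). The call held without each library in turn (limma adjusted p from 0.021 to 0.044). The gene overlaps METTL1, a tRNA methyltransferase gene on the same strand, by 516 bases. METTL1, at 12.8 ± 0.718 and 13.5 ± 1.46 FPKM (SD, n = 3), missed the threshold (limma adjusted p = 0.58).

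CYP27A1 (ENSG00000135929; chromosome 2, 218781749 to 218815293, plus strand), a mitochondrial sterol hydroxylase of bile acid synthesis that also acts on vitamin D, was lower. It stood at 6.44, 6.42 and 5.83 FPKM with scramble and at 5.39, 5.64 and 5.27 FPKM with siDYRK2. The groups did not overlap, although scramble replicate 3 lay close to the highest siDYRK2 library. The log2 difference was −0.18 (SE 0.0541, limma adjusted p = 0.034). The call was lost without scramble replicate 1 (limma adjusted p = 0.1), scramble replicate 2 (0.11), siDYRK2 replicate 1 (0.089) or siDYRK2 replicate 3 (0.089), and with no filter on low values (0.068).

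Of the 5 genes that did not choose the set, 1 was called higher, 1 lower and 3 were not called, against 38.3% of all 15121 tested genes called in either direction (20.4% higher and 17.9% lower). The groups did not overlap for 3 of these 5 genes, VDR included, against 51.7% of all tested genes. The median log2 difference of the 6 genes was −0.04, beside 0.00858 over all genes tested.

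**Figure D1:**
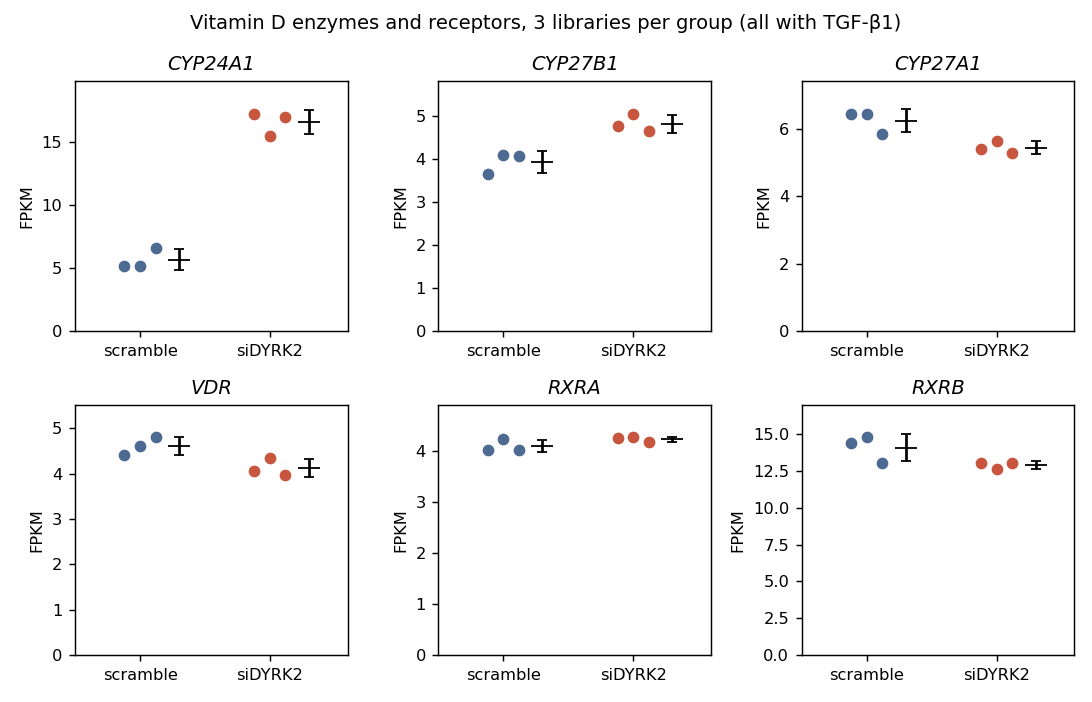
FPKM of the 6 vitamin D genes (vertical axes, each from 0) in the 3 scramble and 3 siDYRK2 libraries; points are libraries and the bars beside them the mean ± SD. CYP24A1 went from a mean of 5.66 to 16.6 FPKM, while the means of the other 5 genes differed by 1.23-fold or less.

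VDR (ENSG00000111424; chromosome 12, 47841537 to 47943048, minus strand), the calcitriol receptor, stood at 4.41, 4.62 and 4.8 FPKM with scramble and at 4.06, 4.35 and 3.98 FPKM with siDYRK2. Every siDYRK2 library was below every scramble library, by a small margin. The log2 difference was −0.14, with an unadjusted 95% interval from −0.27 to −0.01, and it was not called (limma adjusted p = 0.08). In none of the alternative analyses run was VDR called (limma adjusted p from 0.063 to 0.2). A non-coding gene on the opposite strand, AC121338.1, overlaps VDR over 18877 bases, and because strand use in the counting is not given in the sources used here, reads from such a partner cannot be told apart.

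The VDR transcript shares a word of 8 bases with DYRK2, CATCTATA, which an earlier scan of these same data had linked to lower values. That link was not examined again here. The sites are shown because VDR is the member whose longest coding transcript carries this word, in its 3′ untranslated region, while DYRK2 carries it in its coding region; capitals mark the word, as read from GENCODE v29.
VDR: ctgttgcctCATCTATAacatgcatt
DYRK2: gtgctatcaCATCTATAtccaagtta
It starts at position 4151 of the 4773-base VDR transcript and at position 2095 of the 8912-base DYRK2 transcript. The word occurs in the longest coding transcript of 549 of 11917 tested genes (4.61%). It does not occur in that transcript of CYP24A1, CYP27B1, CYP27A1, RXRA or RXRB, which for RXRA is a model of 1846 bases and shorter than its non-coding ones. The word comes from the same comparison, so it does not support anything about VDR, and its part in the level of VDR was not tested.

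RXRA and RXRB encode the receptors that VDR pairs with. RXRA (ENSG00000186350; chromosome 9, 134317098 to 134440585, plus strand) stood at 4.02, 4.22 and 4.02 FPKM with scramble and at 4.25, 4.26 and 4.17 FPKM with siDYRK2. The groups overlapped, and the log2 difference of 0.04 had an interval from −0.07 to 0.15 (limma adjusted p = 0.5). RXRB (ENSG00000204231; chromosome 6, 33193588 to 33200688, minus strand) stood at 14.43, 14.78 and 13.04 FPKM with scramble and at 13.05, 12.61 and 13.06 FPKM with siDYRK2.

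Scramble replicate 3 was inside the range of the siDYRK2 libraries for RXRB. Its log2 difference was −0.12, with an interval from −0.24 to 0.0 (limma adjusted p = 0.11). Without scramble replicate 3 it was −0.17 and was called (limma adjusted p = 0.018). RXRB overlaps SLC39A7, a zinc transporter gene on the opposite strand, by 244 bases. SLC39A7 rose from 27.2 ± 0.479 to 33.7 ± 1.38 FPKM, a ratio of 1.24 (SD over 3 libraries; adjusted p = 9.6e-04 by limma), and the share of reads between the 2 genes was not tested. RXRG, the other RXR gene, was not analysed here.

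In the scramble libraries RXRB had the highest level of the 6 genes, at 14.1 ± 0.92 FPKM (SD, n = 3), followed by CYP27A1, CYP24A1, VDR, RXRA and CYP27B1. CYP27A1 and CYP24A1 overlapped across libraries, as did RXRA and CYP27B1, and the other neighbours in this order did not. In the siDYRK2 libraries CYP24A1 stood first, followed by RXRB at 12.9 ± 0.257 FPKM (SD, n = 3), CYP27A1, CYP27B1, RXRA and VDR, and RXRA and VDR were the neighbours that overlapped.

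Ratios within a library describe the balance between the genes. The ratio of CYP24A1 to CYP27B1, the inactivating over the activating enzyme, was 1.42, 1.27 and 1.63 in the scramble libraries and 3.61, 3.07 and 3.66 in the siDYRK2 libraries. Both transcripts were higher with siDYRK2, and the ratio still had a mean of 1.44 ± 0.18 and 3.45 ± 0.328 (SD, n = 3), with no overlap. CYP24A1 made up 35.7% ± 3.85 of the summed FPKM of the 3 mitochondrial hydroxylases with scramble and 61.7% ± 2.23 with siDYRK2 (SD, n = 3). Because CYP24A1 chose the set, these ratios are a description.

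On the receptor side the balance moved little. The ratio of VDR to RXRA plus RXRB was 0.239, 0.243 and 0.281 with scramble and 0.235, 0.258 and 0.231 with siDYRK2, and the groups overlapped. RXRB made up 78.2%, 77.8% and 76.4% of RXRA plus RXRB with scramble and 75.4%, 74.7% and 75.8% with siDYRK2. RXRB was thus the major RXR transcript in all 6 libraries, at a share that was slightly lower in each siDYRK2 library.

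**Figure D2:**
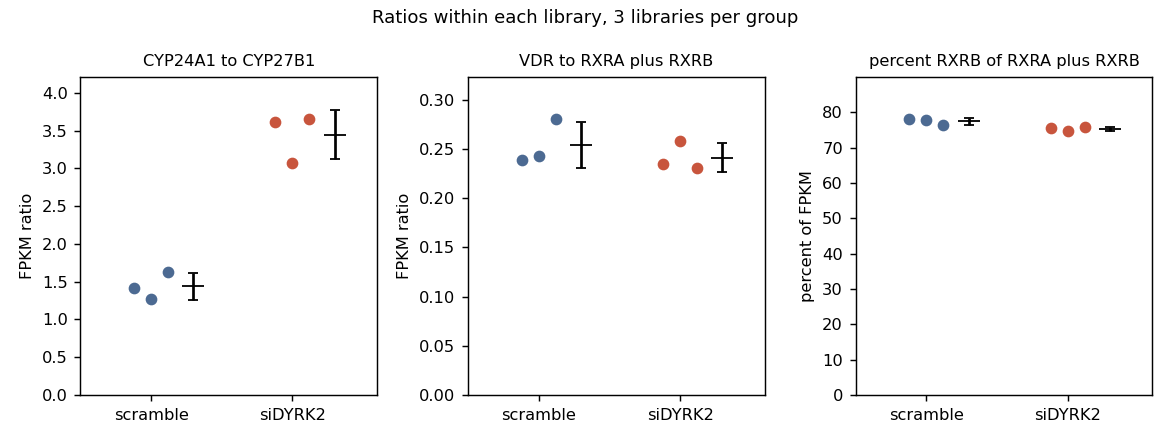
Ratios of FPKM within each library (vertical axes from 0) for the scramble and siDYRK2 groups; points are libraries and bars the mean ± SD. The CYP24A1 to CYP27B1 ratio was 1.27 to 1.63 with scramble and 3.07 to 3.66 with siDYRK2, while the VDR to RXR ratio overlapped between the groups.

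**Figure D3:**
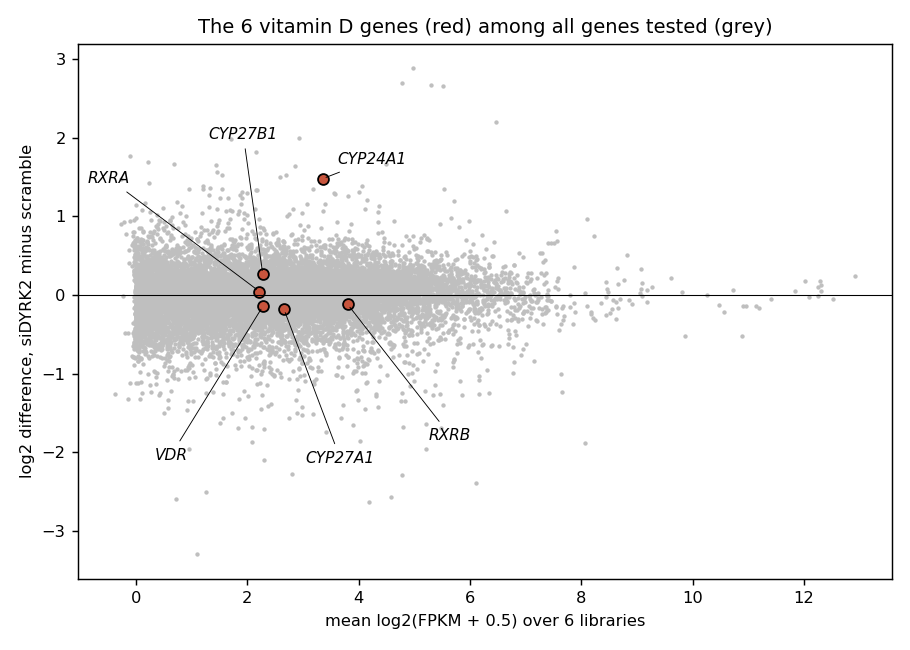
Log2 difference, siDYRK2 minus scramble (vertical axis), against mean log2(FPKM + 0.5) (horizontal axis) for the 15121 tested genes, with the 6 vitamin D genes in red. CYP24A1 lies at 1.48 above the bulk of the genes, and the other 5 lie between −0.18 and 0.27.

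Upstream of these enzymes, genes that set the supply of vitamin D and its precursor went in both directions. Of 10 genes in the supply and uptake list 6 had a value, 3 were tested, 1 rose and 2 fell, with a median log2 difference of −0.75, where 38.3% of all tested genes were called in either direction. CYP2R1, the main microsomal hydroxylase that makes the circulating form, rose from 4.2 ± 0.0862 to 5.82 ± 0.261 FPKM (SD, n = 3), a log2 difference of 0.43 (limma adjusted p = 6.3e-04). DHCR7, which converts the sterol precursor of vitamin D into cholesterol, fell from 73.8 ± 4.38 to 27.6 ± 1.41 FPKM (SD over 3 libraries; adjusted p = 6e-06 by limma). EBP, a sterol isomerase of the same pathway, fell from 42.5 to 25.1 FPKM (limma adjusted p = 7e-05). Both DHCR7 and EBP are enzymes of cholesterol synthesis. CUBN, part of the receptor that takes up the vitamin D carrier in the tubule, reached 0.14 FPKM at most, and LRP2, GC, CYP3A4 and SULT2A1 were not analysed here.

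The electron donors of the mitochondrial hydroxylases were not called. FDX1 (adrenodoxin) stood at 9.63 ± 0.235 and 9.9 ± 1.26 FPKM, and its reductase FDXR at 4.2 ± 0.358 and 4.11 ± 0.363 FPKM (SD, n = 3). The intervals of their log2 differences were −0.16 to 0.22 and −0.22 to 0.16. FDX2, a related ferredoxin of iron-sulphur cluster assembly, stood at 12 ± 1.71 and 12.1 ± 0.355 FPKM (SD, n = 3). Of the 4 genes in this list only POR, which feeds electrons to microsomal enzymes such as CYP2R1, was called, and it fell from 12 to 9.4 FPKM (limma adjusted p = 8.1e-04). That is 1 of 4 called, against 38.3% of all tested genes.

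CYP24A1 was also placed among the other cytochrome P450 genes, a family taken by symbol after the values of the 6 genes were known. The table held 41 P450 genes, of which 14 were tested. Leaving CYP24A1 aside, 3 rose, 5 fell and 5 were not called, with a median log2 difference of −0.02 over the 14. The background was 20.4% of all tested genes called higher and 17.9% lower. CYP24A1 had the largest positive difference of the 14, followed by CYP1A1, an enzyme of foreign compound metabolism, at 0.47 and CYP2R1. By mean FPKM it was the P450 gene of rank 6 with scramble and rank 2 with siDYRK2, behind CYP51A1 of cholesterol synthesis, which fell from 102 ± 2.31 to 49.6 ± 1.05 FPKM (SD, n = 3). Because CYP24A1 was chosen for its rise in this comparison, its ranks are a description only.

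Genes reported as targets of VDR in various tissues were called in both directions. Of 28 such genes 23 had a value, 12 were below the filter and 11 were tested; 2 rose, 6 fell and 3 were not called, with a median log2 difference of −0.35, against 20.4% of all tested genes called higher, 17.9% called lower and a median of 0.00858. TXNIP, an inhibitor of thioredoxin, rose from 2.17 ± 0.184 to 4.98 ± 0.189 FPKM (SD over 3 libraries; adjusted p = 4.8e-05 by limma). LRP5, a Wnt co-receptor, rose from 14 to 16.1 FPKM (limma adjusted p = 0.0098).

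The 6 targets that fell have different roles. FBP1, a gluconeogenic enzyme, fell from 6.95 ± 0.22 to 3.4 ± 0.48 FPKM (SD over 3 libraries; adjusted p = 2.7e-04 by limma). G0S2, an inhibitor of adipose triglyceride lipase, fell from 92.1 to 58.9 FPKM with a log2 difference of −0.64. CLDN12, a claudin linked to calcium passage, and IGFBP3, a binding protein for insulin-like growth factors, both had a log2 difference of −0.48. THBD (thrombomodulin) and ATP2B1, the plasma membrane calcium pump, fell with differences of −0.4 and −0.35. For these 6 genes the limma adjusted p lay between 4.7e-05 (G0S2) and 0.0047 (IGFBP3).

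The targets that were not called were GADD45A, CDKN1A and DUSP10. GADD45A, a growth arrest gene, was lower with a log2 difference of −0.18 (limma adjusted p = 0.11), and was called without scramble replicate 1 (−0.27, limma adjusted p = 0.019). CDKN1A, which encodes p21, and DUSP10, a phosphatase of stress kinases, both differed by −0.07 (limma adjusted p = 0.43 and 0.64). The calcium transport genes TRPV5, TRPV6 and CALB1, textbook targets in kidney and gut, reached 0.02 FPKM at most. KL, which encodes the co-receptor Klotho, reached 0.22 FPKM and was also below the filter. Among other targets below it, CD14 was higher with siDYRK2 and CLDN2 and PTHLH were lower. For these the groups did not overlap, at levels of 0.85 FPKM or less, while over all tested genes 51.7% did not overlap. They were not tested in the main analysis, and for the other targets below the filter the groups overlapped. Without a filter on low values, 3 targets were called higher and 7 lower.

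VDR acts through coactivators and corepressors, and 17 such genes were all tested. Of these 5 rose, 3 fell and 9 were not called, with a median log2 difference of 0.03. These 8 of 17 called genes compare with 38.3% of all tested genes. The histone acetyltransferases CREBBP and EP300 fell, CREBBP from 9.24 ± 0.104 to 6.26 ± 0.0777 FPKM (SD over 3 libraries; adjusted p = 7.1e-05 by limma) and EP300 from 8.42 to 6.71 FPKM (limma adjusted p = 0.009). MED1, the Mediator subunit that binds nuclear receptors, rose from 17.2 ± 0.156 to 20.4 ± 0.414 FPKM (SD over 3 libraries; adjusted p = 0.0011 by limma). SNW1, a coactivator that also acts in splicing, rose from 42 to 49.6 FPKM (limma adjusted p = 5.9e-04).

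Small rises were called for BAZ1B and SMARCA4, and a small fall for TBL1X. BAZ1B, a chromatin remodelling subunit, had a log2 difference of 0.13 (limma adjusted p = 0.012) and lost its call without scramble replicate 2 (0.054). The remodelling ATPase SMARCA4 (0.35, limma adjusted p = 0.025) and the corepressor subunit TBL1X (−0.21, limma adjusted p = 0.044) lost their calls in 6 and 8 of 14 alternative analyses. The count of coregulators that rose was 3 without scramble replicate 1, scramble replicate 2, siDYRK2 replicate 2 or siDYRK2 replicate 3, and also 3 with the replicate block or without a filter. The count that fell was 5 without scramble replicate 3. CARM1, HDAC3 and TBL1XR1, the uncalled members with the highest levels, differed by 0.06, 0.07 and −0.09. TBL1XR1 was called without scramble replicate 3 (limma adjusted p = 0.045).

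Other nuclear receptors share the RXR partners. Of 16 genes in that list 14 had a value and 10 were tested; 3 rose, 1 fell and 6 were not called, with a median log2 difference of 0.04. The share called, 4 of 10, was near the 38.3% of all tested genes. NR4A1, an orphan receptor and immediate early gene, rose from 1.79 ± 0.0874 to 3.54 ± 0.123 FPKM (SD over 3 libraries; adjusted p = 8.5e-05 by limma). PPARD, a receptor for fatty acids, rose from 17.2 to 20.4 FPKM (limma adjusted p = 0.0034). THRA, a thyroid hormone receptor, rose by 0.19 (limma adjusted p = 0.035). That call was lost in 7 of 14 alternative analyses: no filter, the replicate block and each single library left out except scramble replicate 2. NR1H2, an oxysterol receptor, fell by 0.16 (limma adjusted p = 0.014), a call lost without scramble replicate 2 (0.057) or siDYRK2 replicate 1 (0.05), which leaves 0 genes called lower. The retinoic acid receptors RARA and RARG both differed by 0.01, and PPARG by 0.07.

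Transcription factors reported to act on the CYP24A1 or VDR genes were called in both directions. Of 12 such genes, all tested, 5 rose, 3 fell and 4 were not called, with a median log2 difference of −0.02. Over all tested genes 20.4% were called higher and 17.9% lower. SNAI2, a repressor reported to act on VDR, rose from 0.983 ± 0.458 to 3.16 ± 0.191 FPKM (SD over 3 libraries; adjusted p = 0.0016 by limma), and its relative SNAI1 from 1.47 ± 0.324 to 2.91 ± 0.285 FPKM (SD over 3 libraries; adjusted p = 0.0031 by limma). ETS1, an activator reported to act on CYP24A1, rose from 19.4 to 25.3 FPKM (limma adjusted p = 8.1e-04). YBX1 and CEBPD rose by 0.21 and 0.23 on the log2 scale.

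CEBPB, a factor also reported as an activator of CYP24A1, fell from 82.4 ± 2.07 to 53.2 ± 1.23 FPKM (SD over 3 libraries; adjusted p = 1.9e-05 by limma). KLF4 fell from 8.4 to 5.32 FPKM (limma adjusted p = 1.9e-04), and NR3C1, the glucocorticoid receptor, from 12.1 to 9.2 FPKM (limma adjusted p = 8.5e-04). SP1 and SP3, factors of many GC-rich promoters, differed by −0.07 and −0.1 and were not called. CEBPA differed by −0.27 (limma adjusted p = 0.16) and was called without siDYRK2 replicate 1 (−0.4, limma adjusted p = 0.036).

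Across the 6 lists of pathway genes, 57 of 87 were tested, of which 16 rose, 16 fell and 25 were not called. That is 56.1% called, against 38.3% of all tested genes, and the lists were written with results of these data known.

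**Figure D4:**
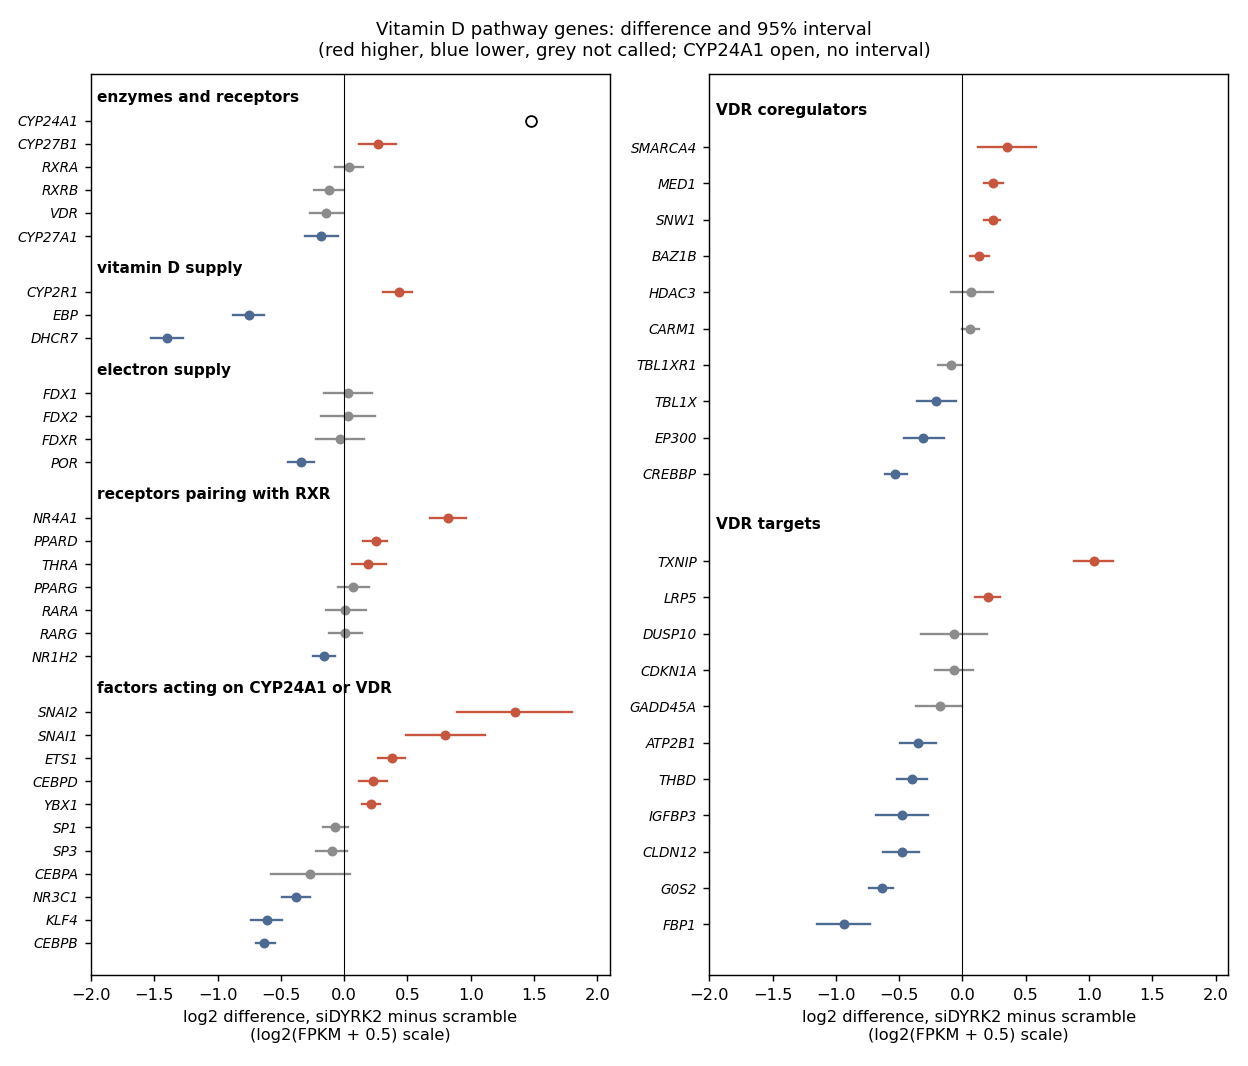
Log2 difference, siDYRK2 minus scramble (horizontal axes), for the 6 vitamin D genes and the pathway genes described in the text (rows, by list); bars are unadjusted 95% intervals from limma, red marks genes called higher, blue called lower and grey not called, and CYP24A1 is open without an interval. Of the VDR targets 6 fell and 2 rose.

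Promoters were searched for the DR3 element, the repeat of a hormone receptor half-site with a spacer of 3 bases that VDR and RXR bind. RefSeq promoters on GRCh38.p14, from 250 bases before to 50 after a start, were matched for 77 of 93 genes of the set and its lists, and for RXRA, RXRB and CYP27A1 among the 6 genes. CYP24A1, CYP27B1 and VDR were not in the table. On both strands, 0 of the 133 promoters of these 77 genes held the element, and 88 of all 35116 promoters did (0.251%). Both half-sites had to match a fixed pattern of letters, so elements with other letters would be missed. At 0.251% of all promoters, finding 0 among 133 was likely for any genes, so the search cannot set these genes apart. These windows do not contain the searched letters, which says nothing about binding there or elsewhere.

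The genes whose levels ran most like CYP24A1 over the 6 libraries were searched among 10676 genes averaging 2 FPKM or more. By Pearson's r of log2(FPKM + 0.5) the first 5 were IGFBPL1, FSTL3, SYDE1, FGFRL1 and SLC4A2, with r from 0.998 to 0.9987. FSTL3, a secreted binder of activin, went from 11.4 ± 1.42 to 24.7 ± 1.42 FPKM, and IGFBPL1 from 13.3 ± 0.329 to 16.8 ± 0.262 FPKM (SD, n = 3). In all, 113 genes had an r above 0.99, and these points share the difference between the groups. With the group means removed, the first 5 were POLR2J, NOP10, MT-TC, PCDHGB5 and ZDHHC8, with r from 0.993 to 0.9988, and none of the first list was among them. By this measure 7 genes had an r above 0.99. With 6 libraries and 10676 genes searched, an r this high can arise by chance, so these names are a description.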

How the data were processed

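Per the labels' protocols, Trizol extracts of total RNA, treated with DNase I, were sequenced on Illumina instruments. HISAT2, StringTie and the build GRCh38 are listed in the submitters' processing notes, with no version or role for either tool. The deposited table holds FPKM that the authors computed, with 2 decimals; the unit is per the file headers. Annotation, strandedness and filters: not given in the sources used here. All 6 columns were matched to the labels, and 0 other sample columns were present. FPKM keeps no depth: after scaling by transcript length, between 27.5% and 31.1% of the low values came within 0.1 of whole reads (20% by chance), so no counts were recovered and no count test or counting interval is given.

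For genes averaging 0.5 FPKM or more, log2(FPKM + 0.5) was compared by limma (version 3.58.1, R 4.3.3; mean-variance trend, no block, Benjamini-Hochberg over all genes tested, threshold 0.05), a step tested on simulated data. Levels are mean ± SD. Summaries used Python 3.11.15, and coordinates GENCODE v29. The members and lists were chosen with earlier results of these data known. Named were the 6 genes, DYRK2, called list members, up to 4 uncalled members per list by level, and the 5 genes most like CYP24A1; others named were chosen after their values were seen. Alternatives were other pseudocounts (0.1, 1), filters, scalings, no trend, a replicate block and each library left out. Some items counted in the lists are not reported here by name.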

Additional observations from a re-analysis of the deposited data

How the results depend on the processing

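The analyses repeated under 14 alternatives kept the direction of the differences of DYRK2, CYP24A1, CYP27B1, CYP27A1, VDR, RXRA and RXRB. The CYP24A1 difference was 1.42 to 1.59 with single libraries left out, and 1.54 and 1.4 with pseudocounts of 0.1 and 1. CYP27A1 kept its difference of −0.18 but not its call without a filter on low values, and with single libraries left out its difference was −0.22 to −0.16. RXRB ranged from −0.17 to −0.0849 over single libraries left out. Fewer libraries leave less information for a call. Without scramble replicate 3 RXRB gained a call (limma adjusted p = 0.018), and no cause of the changes in calls was tested.

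Genes called over the whole table were 2355 to 3214 higher and 2112 to 2728 lower under the alternatives. Replicate numbers showed no sign of pairing the samples: the correlations of same-numbered deviations were −0.0767, 0.0243 and −0.0884. The labels do not say whether the samples were paired, and these values cannot settle it. With the replicate block 2495 genes were called higher and 2321 lower. No call changed among the vitamin D genes other than CYP24A1, which is described without a test (CYP27A1 limma adjusted p = 0.048).

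Uncalled differences near 0 changed sign with 1 library left out, over these ranges: FDX1 −0.0639 to 0.1, FDX2 −0.0558 to 0.14, FDXR −0.0939 to 0.0198, RARA −0.0551 to 0.0743, RARG −0.0427 to 0.0577, HDAC3 −0.000349 to 0.14, DUSP10 −0.17 to 0.0177 and CDKN1A −0.11 to 0.0017. The sign turned for FDX2 without scramble replicate 1, for FDXR (0.00494) and RARA without scramble replicate 2, and for FDXR (0.00201), RARG, DUSP10 and CDKN1A without scramble replicate 3. It also turned for FDX1, FDXR and HDAC3 without siDYRK2 replicate 2 and for DUSP10 (0.00609) without siDYRK2 replicate 3. Without the mean-variance trend 2 RXR partner genes were called lower instead of 1, and 4 were called higher instead of 3. Genes averaging below 0.5 FPKM were not tested, and the depth behind all values is unknown.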
